A study of Homo sapiens with 6 samples.

Results

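The 10 genes described here, CCN1, CCN2, ANKRD1, CRIM1, AXL, NUAK2, AMOTL2, LATS2, AJUBA and ARHGEF17, are widely used as readouts of the coactivators YAP and TAZ. They were matched by symbol, and all 10 have a row among the 35716 genes of the deposited count table. RNA was measured by poly(A)-selected sequencing in 6 libraries. All came from MIA PaCa-2, a long-established line of human pancreatic ductal carcinoma cells, labelled wild type in genotype. In 3 libraries the cells had been kept with 10 nM triptolide for 24 h, and in the other 3 they were untreated cells kept for 24 h in DMEM with 10% FBS, which the labels name NC. Triptolide is a plant diterpenoid that binds the XPB subunit of the general transcription factor TFIIH. The title names autophagy and extracellular matrix activation as the processes of interest. Separate cultures are not mentioned in the labels, so the p-values below rest on the spread among libraries alone, and that spread may be technical.

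YAP and TAZ (gene symbols YAP1 and WWTR1) carry no DNA-binding domain and reach DNA through TEAD factors. The Hippo kinases, MST acting on LATS, phosphorylate YAP and TAZ and keep them in the cytoplasm, while a stiff matrix, cell spreading and tension in the actin cytoskeleton let them enter the nucleus. CCN1 and CCN2 encode secreted proteins of the matrix that bind integrins. ANKRD1 encodes an ankyrin repeat protein best known from heart and skeletal muscle, and CRIM1 a transmembrane protein that binds BMPs. AXL encodes a receptor tyrosine kinase for GAS6, NUAK2 a kinase related to AMPK, and ARHGEF17 a guanine nucleotide exchange factor. LATS2, AMOTL2 and AJUBA encode proteins of the Hippo pathway itself: LATS2 is a kinase of YAP, AMOTL2 an angiomotin family protein that binds and retains YAP, and AJUBA a LIM protein that restrains the LATS kinases.

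TEAD factors bind the motif GGAATG. The 250 bases before the RefSeq transcription start (build GRCh38.p14) are shown for the 3 genes whose windows held more than 1 such motif, of which ANKRD1 and NUAK2 fell with triptolide and CCN2 was not called. All 3 lie on the minus strand, at chr6:131951373-131951622 for CCN2, chr10:90921088-90921337 for ANKRD1 and chr1:205321746-205321995 for NUAK2. Capitals mark matches to GGAATG on either strand and, in ANKRD1, 1 match to the motif TGANTCA of the AP-1 transcription factors.
CCN2: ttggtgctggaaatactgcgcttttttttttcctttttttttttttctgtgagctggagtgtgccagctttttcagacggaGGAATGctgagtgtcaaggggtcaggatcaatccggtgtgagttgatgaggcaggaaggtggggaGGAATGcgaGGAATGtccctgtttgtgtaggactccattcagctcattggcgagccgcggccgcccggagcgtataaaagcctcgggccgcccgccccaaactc
ANKRD1: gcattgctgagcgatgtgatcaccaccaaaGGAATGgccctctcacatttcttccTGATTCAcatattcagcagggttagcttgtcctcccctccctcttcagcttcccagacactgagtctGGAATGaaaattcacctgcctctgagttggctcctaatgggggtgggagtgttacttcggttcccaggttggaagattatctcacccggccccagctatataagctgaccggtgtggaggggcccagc
NUAK2: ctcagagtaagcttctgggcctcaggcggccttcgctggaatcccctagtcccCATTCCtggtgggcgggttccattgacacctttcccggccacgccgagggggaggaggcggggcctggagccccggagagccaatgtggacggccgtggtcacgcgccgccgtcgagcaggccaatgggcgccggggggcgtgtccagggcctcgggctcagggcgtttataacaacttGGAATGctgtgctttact

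Counted from the start, the GGAATG matches of CCN2 began 169, 104 and 95 bases upstream, those of ANKRD1 220 and 128, and those of NUAK2 197 and 18. A search on both strands of all 35116 RefSeq windows of this length found at least 1 GGAATG in 11.9%, at least 2 in 0.940% and at least 3 in 0.0826%. By symbol, 7 of the 10 genes matched the table, with 10 windows, since AXL, AMOTL2 and AJUBA have 2 starts each; CCN1, CRIM1 and ARHGEF17 had no match. The windows of 6 of these 7 genes held a GGAATG, LATS2 being the exception. Counted by window it was 6 of the 10, in genes listed as YAP and TAZ targets, and no test was made against all windows. In AXL, AMOTL2 and AJUBA the match lay in 1 of the 2 windows. TGANTCA, which did not overlap a GGAATG in these windows, was found in the ANKRD1 window alone among the 10 and in 6.57% of all windows. The CArG box, the motif of the serum response factor, was found in 0 of the 10 windows and in 1.16% of all. A match says that these letters are present and not that a factor binds there.

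Total counts ranged from 16302961 to 23262713 per library, and 15202 genes had enough counts to be tested, all 10 target genes among them. CPM below are counts scaled to a common library size after TMM normalization. They measure a gene's share of its library and not its amount per cell. A change in RNA per cell that all genes had in common would thus go unseen, and the fold changes carry the same limit. The words rose and fell are kept for genes with a Benjamini-Hochberg adjusted p under 0.05 over all tested genes in edgeR's quasi-likelihood test. A pair of libraries stood apart within their groups. Across 10276 genes averaging 5 CPM or more, the difference of triptolide library 1 from the other triptolide libraries went with GC content (Pearson r = 0.81, over genes that are not independent), and that of untreated library 3 from the other untreated libraries went with the log of exon length (r = -0.55) and with GC content (r = 0.35). Keratin and vimentin genes marked the line in both groups (KRT8 at 1587 ± 256 CPM with triptolide and 1894 ± 341 CPM untreated, SD, n = 3 libraries each), while the epithelial genes EPCAM and CDH1 were nearly absent, with 3 and 16 counts summed over triptolide libraries and 4 and 5 summed over untreated ones. Of the 5 tested markers of the line, 2 were lower with triptolide, KRT18 and VIM (edgeR adjusted p = 0.0123 and 0.0420). Of the 6 fits that leave out a library, KRT18 passed in 5 and VIM in 2. Over 10 trophoblast markers the summed level was 521 to 887 CPM in triptolide libraries and 8.14 to 9.09 CPM in untreated libraries. All 7 tested markers rose, against 10.0% of all tested genes. Of the 7, CGA, PSG1, KISS1, CYP19A1 and ERVW-1 passed the count filter through the triptolide libraries alone. Over 10 fibroblast markers the summed level was 307 to 420 CPM with triptolide and 408 to 484 CPM untreated, with 3 of 7 tested markers lower. Among these markers FAP had 0 counts in the triptolide libraries and 11 in the untreated libraries, and GCM1, of the trophoblast list, had 47 in the triptolide libraries and 0 in the untreated libraries. Over 6 endothelial markers it was 19.2 to 23.3 CPM with triptolide and 26.2 to 31.5 CPM untreated, with 1 of 3 tested markers higher and 1 lower. The lower marker, CDH5, made most of this sum, at 15.9 CPM with triptolide and 23.6 CPM untreated (edgeR adjusted p = 0.0471). CDH5 passed in 2 of the 6 fits that leave out a library. VWF, the higher marker, had 52 counts with triptolide and 4 untreated, and passed the count filter through the triptolide libraries alone. EMCN was not called. Of those not tested, PECAM1, KDR and TEK had 58, 19 and 3 counts with triptolide and 5, 10 and 4 untreated.

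Of the 10 target genes, 3 fell with triptolide, namely ANKRD1, NUAK2 and CCN1, and 0 rose. Over all tested genes 5.82% fell, 10.0% rose and 15.9% were called in either direction. By edgeR's unadjusted p under 0.05, 3 were lower and 1, AXL, was higher, against 2094 lower and 2596 higher of 15202 tested genes. DESeq2 called 3 lower and 1 higher, against 1123 lower and 1505 higher over all tested genes. With limma-voom 3 were lower and 0 higher, against 899 lower and 1483 higher. The libraries of the 2 groups did not overlap in 4 of the 10 genes, where they did not overlap in 36.7% of all tested genes. The median log2 fold change of the 10 genes was -0.16, and that of all tested genes was -0.004. LATS2, AMOTL2 and AJUBA, which act on YAP or LATS, were not called. In bulk RNA, fewer cells of a type and less RNA per cell cannot be told apart.

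**Figure D1:**
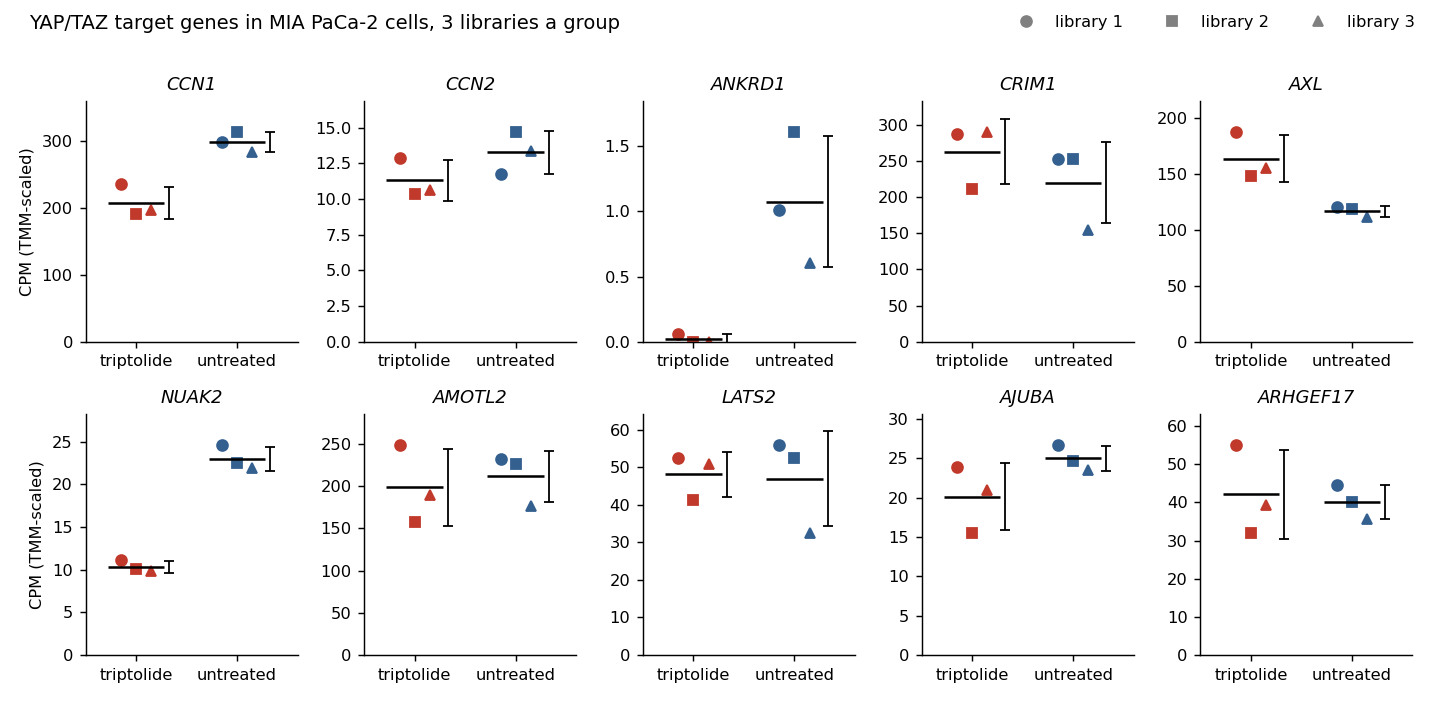
TMM-scaled CPM (y axis, from 0, a scale for each gene) of the 10 target genes in the triptolide libraries (red, left) and untreated libraries (blue, right) of MIA PaCa-2 cells. Symbols are single libraries, horizontal lines are means and brackets are SDs of 3 libraries; the groups lie apart in CCN1, ANKRD1, AXL and NUAK2 and overlap in the other 6 genes.

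NUAK2 (ENSG00000163545) showed the clearest difference among target genes with more than a few counts. It stood at 11.1, 10.1 and 9.78 CPM in triptolide libraries 1, 2 and 3, against 24.6, 22.5 and 21.9 CPM in untreated libraries 1, 2 and 3. Every triptolide library lay below every untreated library, and the spread within each group was small, with a coefficient of variation of 6.88% with triptolide and 6.14% untreated. The fall was 2.22-fold (log2 fold change -1.15 ± 0.17, SE; edgeR adjusted p = 9.23e-04). Leaving out any single library gave log2 fold changes between -1.20 and -1.11, all past the threshold. The related kinase gene NUAK1 stood at 6.58 ± 0.89 CPM with triptolide and 8.17 ± 1.92 CPM untreated (adjusted p = 0.378).

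ANKRD1 (ENSG00000148677) was rare in these cells and nearly absent with triptolide. Its counts were 1, 0 and 0 in triptolide libraries 1, 2 and 3, and 18, 29 and 11 in untreated libraries 1, 2 and 3, that is 0.063, 0 and 0 CPM against 1.01, 1.61 and 0.606 CPM. The groups did not overlap. With 1 count in one group the fitted fold change is not used: pooled over libraries the level was 68.4 times as high in untreated cells as with triptolide, with a 95% exact interval from 11.8 to 2749.6 for counting error alone, which treats reads as independent although no molecular identifiers were counted. The edgeR adjusted p was 7.76e-04, and it stayed under 0.05 without each of the 6 libraries in turn. With all 6 libraries, ANKRD1 passed the count filter through the untreated libraries alone. The related genes ANKRD2 and ANKRD23 stood at 1.99 ± 0.418 and 0.977 ± 0.437 CPM with triptolide, against 1.69 ± 0.437 and 0.610 ± 0.143 CPM untreated, and neither was called.

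CCN1 (ENSG00000142871), the most abundant of the 10 genes per length, fell less. It stood at 236, 191 and 197 CPM in triptolide libraries 1, 2 and 3, against 299, 313 and 284 CPM in untreated libraries 1, 2 and 3. The highest triptolide library lay below the lowest untreated library. The fall was 1.44-fold (log2 fold change -0.52 ± 0.16, SE) and lay close to the threshold, at an edgeR adjusted p of 0.0401. The call was lost without triptolide libraries 2 or 3 (adjusted p = 0.100 and 0.159) and without untreated libraries 1 or 2 (adjusted p = 0.112 and 0.174), while the log2 fold change stayed between -0.61 and -0.46 with each library left out in turn. It was also lost when libraries were scaled by their totals (adjusted p = 0.0573), when genes averaging under 5 CPM were left out (adjusted p = 0.0944), and with scaling on ribosomal protein genes (adjusted p = 0.431), which moves the median log2 fold change of all genes to 0.17.

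CCN2 (ENSG00000118523), the close relative of CCN1 and the gene with 3 GGAATG motifs above, was not called. It stood at 12.9, 10.3 and 10.7 CPM in triptolide libraries 1, 2 and 3, against 11.7, 14.7 and 13.4 CPM in untreated libraries 1, 2 and 3, so that triptolide library 1 lay above untreated library 1. The log2 fold change was -0.23 ± 0.18 (SE), with an edgeR adjusted p of 0.424. That CCN1 passed and CCN2 did not does not show that their responses differ, since the difference between them was not tested. Of the other CCN family genes, CCN5 stood at 0.93 ± 0.097 CPM with triptolide and 0.57 ± 0.085 CPM untreated (adjusted p = 0.166). CCN3 had 3 counts in the triptolide libraries and 6 in the untreated libraries, and CCN6 had 1 count in each group, too few to be tested.

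AXL (ENSG00000167601) was the target gene with the largest positive log2 fold change and lay just outside the threshold. It stood at 187, 148 and 156 CPM in triptolide libraries 1, 2 and 3, against 120.3, 119 and 111 CPM in untreated libraries 1, 2 and 3. Every triptolide library lay above every untreated library. Its log2 fold change was 0.49 ± 0.16 (SE; edgeR adjusted p = 0.0534). It passed without triptolide library 2 (adjusted p = 0.0494), with library totals (0.0338), without genes averaging under 5 CPM (0.0433), in DESeq2 (0.0372) and with an offset for GC content per library (0.0187). Its ligand gene GAS6 stood at 6.34 ± 1.87 CPM with triptolide and 9.97 ± 1.72 CPM untreated (adjusted p = 0.0773, and 0.0153 without triptolide library 1). The related receptor gene TYRO3 averaged 33.5 CPM with triptolide and 37.2 CPM untreated (adjusted p = 0.589), and MERTK averaged 3.48 ± 0.265 CPM with triptolide and 2.61 ± 0.497 CPM untreated (adjusted p = 0.255).

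LATS2 (ENSG00000150457) stood at 52.4, 41.3 and 50.8 CPM in triptolide libraries 1, 2 and 3, against 55.8, 52.5 and 32.5 CPM in untreated libraries 1, 2 and 3. The groups overlapped, and untreated library 3 was the lowest of the 6. The log2 fold change was 0.04 ± 0.21 (SE; edgeR adjusted p = 0.929), and -0.18 without untreated library 3. AMOTL2 (ENSG00000114019) stood at 248, 157 and 189.8 CPM in triptolide libraries, against 232, 226 and 177 CPM in untreated libraries, with a log2 fold change of -0.09 ± 0.19 (adjusted p = 0.786). The triptolide values of AMOTL2 enclosed the untreated ones. AJUBA (ENSG00000129474) stood at 23.9, 15.5 and 21.0 CPM with triptolide, against 26.6, 24.7 and 23.6 CPM untreated, with a log2 fold change of -0.31 ± 0.19 (adjusted p = 0.287); only triptolide library 1 reached the untreated range. WTIP, a gene of the same LIM protein family, stood at 45.2 ± 10.4 CPM with triptolide and 56.2 ± 12.8 CPM untreated (adjusted p = 0.345).

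CRIM1 (ENSG00000150938) stood at 287, 210.4 and 289 CPM in triptolide libraries 1, 2 and 3, against 253, 252 and 155 CPM in untreated libraries 1, 2 and 3. Its log2 fold change of 0.25 ± 0.21 (SE; edgeR adjusted p = 0.453) was 0.04 without untreated library 3 (adjusted p = 0.899). ARHGEF17 (ENSG00000110237) stood at 55.0, 32.1 and 39.3 CPM with triptolide, against 44.6, 40.1 and 35.7 CPM untreated, with a log2 fold change of 0.07 ± 0.21 (adjusted p = 0.857). Its groups overlapped and triptolide library 1 was the highest of the 6. Untreated library 3 held 0.614 times the mean of the other untreated libraries for CRIM1, 0.601 times for LATS2 and 0.772 times for AMOTL2, and 0.843 to 1.01 times for the other target genes apart from ANKRD1, at 0.463 times with 11 counts. Exon length in GENCODE 29 was 7122, 5578 and 5984 bases for CRIM1, LATS2 and AMOTL2, but also 9908 and 5979 bases for ARHGEF17 and AJUBA, whose values in that library were 0.843 and 0.918 times those of the others. That library's difference from its group went with exon length over all genes, as given above, and the part of length in these values was not tested.

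**Figure D2:**
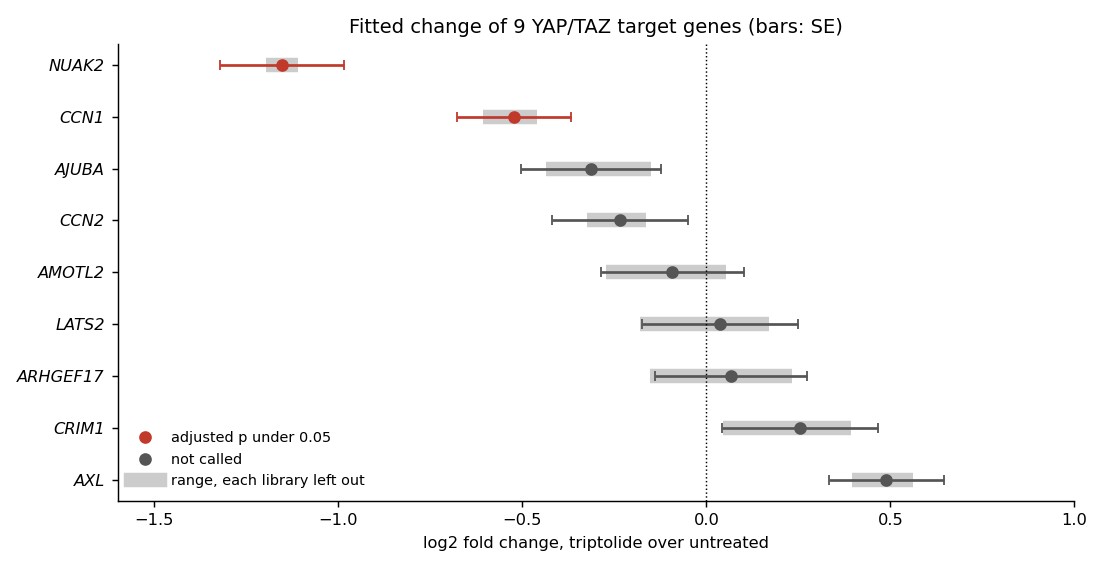
Log2 fold change, triptolide over untreated (x axis), of 9 target genes with its SE (bars) and the range over fits that leave out 1 of the 6 libraries each (grey bands). ANKRD1 is left out because it had 1 count in the triptolide libraries; NUAK2 and CCN1 (red) passed the threshold, and the bands of AMOTL2, LATS2 and ARHGEF17 cross 0.

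Per kilobase of exon, CCN1 was far the most abundant target gene, at 84.7 CPM per kb with triptolide and 122 CPM per kb untreated. With triptolide the order then ran CRIM1 (36.8), AMOTL2 (33.2) and AXL (31.8 CPM per kb), whose library ranges overlapped, then LATS2 at 8.63, CCN2 at 4.83, ARHGEF17 at 4.25, AJUBA at 3.37, NUAK2 at 3.01 and ANKRD1 at 0.011 CPM per kb, with overlap between each pair of neighbours from CCN2 to NUAK2. In untreated cells it ran AMOTL2 (35.4), CRIM1 (30.9), AXL (22.6), LATS2 (8.42), NUAK2 (6.68), CCN2 (5.67), AJUBA (4.18), ARHGEF17 (4.05) and ANKRD1 (0.54 CPM per kb). There the ranges overlapped between AMOTL2 and CRIM1, CRIM1 and AXL, LATS2 and NUAK2, and AJUBA and ARHGEF17. NUAK2 and CCN2 did not overlap in untreated libraries (6.35 to 7.14 against 5.01 to 6.28 CPM per kb), nor did they with triptolide, where NUAK2 lay below CCN2 (2.84 to 3.24 against 4.42 to 5.52 CPM per kb). The exon lengths are those of GENCODE 29, and the annotation behind the counts is not given in the sources used here.

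Among 18 other genes used as markers of YAP and TAZ output, 15 were tested, of which 3 fell and 2 rose, and their median log2 fold change was -0.07. Over all tested genes 5.82% fell and 10.0% rose. THBS1, the gene of the secreted matrix protein thrombospondin 1, stood at 0.252, 0.438 and 0.559 CPM in triptolide libraries, against 22.5, 35.5 and 27.7 CPM in untreated libraries. It fell 64.9-fold (edgeR adjusted p = 4.55e-07), having met the count filter in all untreated libraries but not in all triptolide libraries. AREG, an EGF receptor ligand gene, stood at 24.5, 24.9 and 23.9 CPM with triptolide, against 37.5, 34.6 and 42.5 CPM untreated, and fell 1.56-fold (adjusted p = 0.0188; 0.0851, 0.0608 and 0.0528 without triptolide library 3, untreated library 1 and untreated library 2, and 0.336 with ribosomal protein scaling). NT5E, the gene of the ectoenzyme CD73 that makes adenosine, stood at 435, 546 and 534 CPM with triptolide, against 314, 341 and 274 CPM untreated, and rose 1.63-fold (adjusted p = 0.0135; 0.0587 without triptolide library 3, 0.05001 without untreated library 1 and 0.0559 with ribosomal protein scaling).

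The other 2 calls lay at the threshold. FJX1, whose fly homologue is the kinase Four-jointed, stood at 22.4 ± 3.40 CPM with triptolide and 33.1 ± 3.61 CPM untreated and fell 1.48-fold (edgeR adjusted p = 0.0491). IGFBP3, which encodes a binding protein of insulin-like growth factors, stood at 1.70, 2.49 and 1.92 CPM with triptolide, against 0.897, 1.39 and 0.881 CPM untreated, and rose 1.94-fold (adjusted p = 0.0482). Each was called in only 1 of the 6 fits that leave out a library, FJX1 without triptolide library 1 and IGFBP3 also without triptolide library 1, and in the other 5 the adjusted p ran from 0.0840 to 0.176 for FJX1 and from 0.0577 to 0.154 for IGFBP3. Ribosomal protein scaling also ended both calls (0.444 for FJX1 and 0.0838 for IGFBP3), as did library totals (0.0680), no low-count filter (0.0518) and leaving out genes under 5 CPM (0.108) for FJX1, and DESeq2 (0.0752) for IGFBP3. MYOF, the most abundant of the list, was not called and stood at 655 ± 74.5 CPM with triptolide and 658 ± 166 CPM untreated (adjusted p = 0.990).

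Beside ANKRD1 and THBS1, 3 of the 7 tested fibroblast markers also fell with triptolide, and 4 were not called. COL1A1 stood at 3.40, 2.45 and 2.64 CPM with triptolide and 49.0, 73.1 and 61.1 CPM untreated. THY1 stood at 0.999 ± 0.082 CPM with triptolide and 2.74 ± 0.26 CPM untreated. POSTN had 3 counts with triptolide and 441 untreated, and passed the count filter through the untreated libraries alone. COL1A2, a marker of the same list, stood at 329 ± 54.5 CPM with triptolide and 323 ± 30.8 CPM untreated (edgeR adjusted p = 0.936). COL3A1, PDGFRB and DCN were not called either (edgeR adjusted p = 0.0547, 0.585 and 0.753), with log2 fold changes of -0.51, -0.36 and 0.20. The part of these markers in the falls of ANKRD1 and THBS1 was not tested.

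Neither coactivator gene was called, and neither was any TEAD gene. YAP1 stood at 67.0, 68.9 and 84.6 CPM in triptolide libraries, against 79.9, 79.7 and 55.6 CPM in untreated libraries, with a log2 fold change of 0.04 ± 0.19 (SE; edgeR adjusted p = 0.918). WWTR1, the gene of TAZ, stood at 157, 170.0 and 181 CPM with triptolide, against 177, 183 and 145 CPM untreated, with a log2 fold change of 0.01 ± 0.16 (adjusted p = 0.982). The groups overlapped for each gene, and untreated library 3 was the lowest of the 6 for each.

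Among the TEAD genes, TEAD1 stood at 88.4 ± 16.65 CPM with triptolide and 83.4 ± 28.6 CPM untreated (edgeR adjusted p = 0.850). TEAD3 stood at 15.3 ± 2.47 CPM with triptolide and 16.5 ± 0.477 CPM untreated (adjusted p = 0.718). TEAD4 stood at 92.5 ± 19.8 CPM with triptolide and 110.0 ± 9.09 CPM untreated (adjusted p = 0.376; the GC offset gave 0.0186). TEAD2 stood at 26.1, 22.5 and 21.0 CPM with triptolide, against 29.7, 30.3 and 31.1 CPM untreated. Its groups did not overlap, but its log2 fold change of -0.39 ± 0.16 was not called (adjusted p = 0.129, and 0.0403 without triptolide library 1 and 0.00892 with the GC offset).

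VGLL1, a cofactor gene of the vestigial-like family whose product binds TEAD factors and which is known from trophoblast, was the 1 gene called among 8 tested of this group. It had 50 counts in the triptolide libraries, at 0.945, 0.656 and 0.799 CPM, and 0 counts in the untreated libraries (edgeR adjusted p = 7.61e-04). It passed the count filter through the triptolide libraries alone. With the untreated libraries set to 3 counts in all, its level was 14.1-fold higher with triptolide, leaving aside counting error in the 50 counts. The trophoblast markers given above were likewise higher in every triptolide library than in any untreated library, and their part in the level of VGLL1 was not tested. In edgeR 0 genes of this group were lower, with 1 lower at an unadjusted p under 0.05, and DESeq2 and limma-voom also gave 0. Of all 15202 tested genes 884 were lower in edgeR, and 2094 were lower at an unadjusted p under 0.05. VGLL4, a relative that opposes YAP, stood at 15.7 ± 2.49 CPM with triptolide and 12.9 ± 3.29 CPM untreated (adjusted p = 0.425).

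Of 27 genes of the Hippo pathway upstream of YAP, LATS2, AMOTL2 and AJUBA included, 26 were tested, of which 2 rose and 0 fell, with a median log2 fold change of -0.10. Over all tested genes 10.0% rose and 5.82% fell. By edgeR's unadjusted p under 0.05, 3 of the 26 were higher and 3 lower, against 2596 higher and 2094 lower of all 15202. With DESeq2 or limma-voom 0 of the 26 were called lower. AMOTL1, an angiomotin relative of AMOTL2, stood at 25.8, 19.1 and 25.6 CPM with triptolide, against 16.3, 14.5 and 9.09 CPM untreated, and rose 1.77-fold (adjusted p = 0.0294). It did not pass without triptolide libraries 1 or 3 (adjusted p = 0.0708 and 0.0903) or untreated libraries 2 or 3 (0.0650 and 0.0766), nor with ribosomal protein scaling (0.130). DCHS1, a protocadherin gene whose product binds FAT4, stood at 2.08, 0.963 and 0.799 CPM with triptolide and 0.617, 0.443 and 0.275 CPM untreated and rose 2.74-fold (adjusted p = 0.0498), on 75 counts in triptolide libraries and 24 in untreated libraries. It did not pass without triptolide library 1 (adjusted p = 0.137) or untreated libraries 1, 2 or 3 (0.0547, 0.119 and 0.148), nor with RLE size factors (0.0506), ribosomal protein scaling (0.0620) or limma-voom (0.0632). DCHS1 met the count filter in all triptolide libraries but not in all untreated libraries. STK25, a kinase gene and the most abundant of the list, stood at 227 ± 46.5 CPM with triptolide and 219 ± 23.1 CPM untreated (adjusted p = 0.863). NF2, the gene of the upstream regulator merlin, stood at 157 ± 12.9 CPM with triptolide and 209 ± 17.2 CPM untreated (adjusted p = 0.0922; leaving out triptolide library 1 gave 0.0399).

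**Figure D3:**
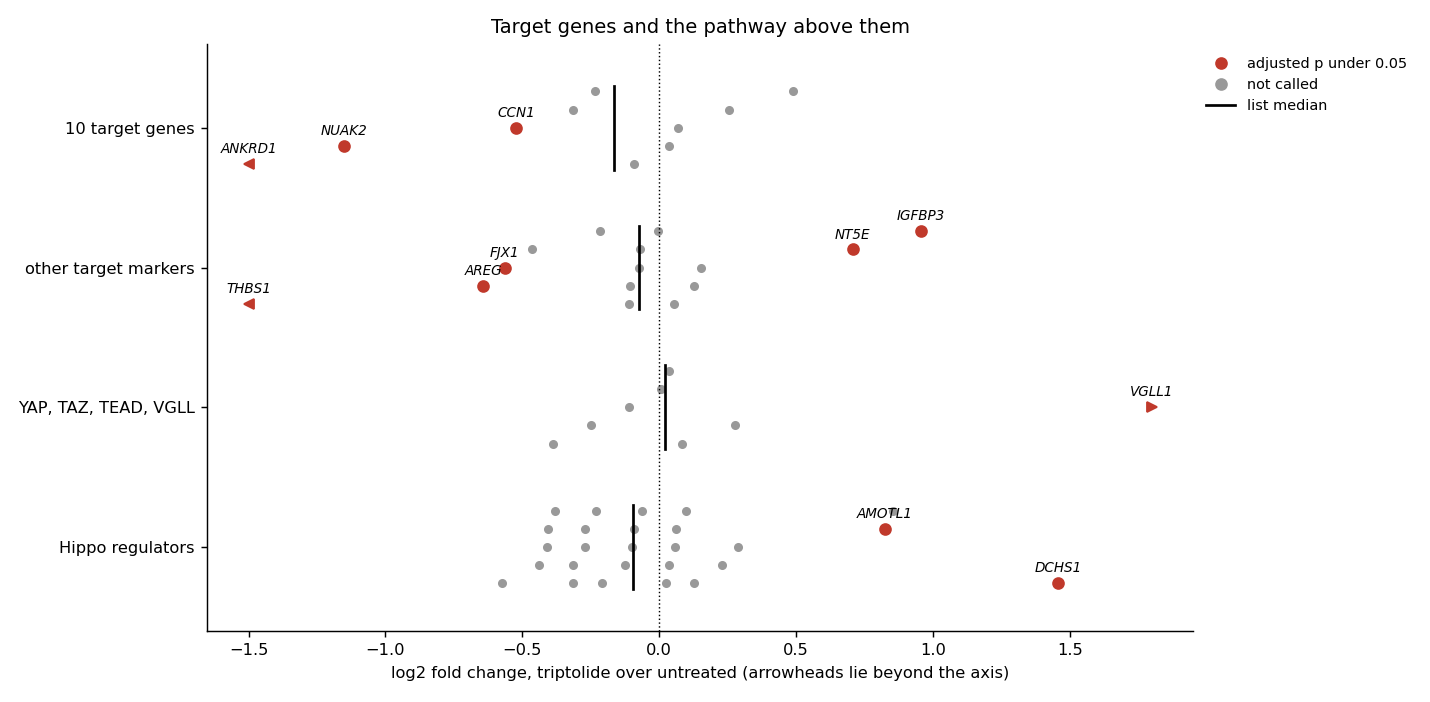
Log2 fold change, triptolide over untreated (x axis), of every tested gene of 4 lists, with genes past the threshold in red and named and list medians as black bars; vertical offsets within a list carry no value. ANKRD1, THBS1 and VGLL1 lie beyond the axis, and the medians lie between -0.16 and 0.02.

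The call for NUAK2 held under each of 14 other settings of the scaling, the filter, the test, the GC offset or the libraries, all fitted on group alone, with adjusted p-values up to 0.0408, and that for ANKRD1 under each of the 13 in which it was tested, with adjusted p-values up to 0.00688. As reported, ANKRD1 passed the count filter through the untreated libraries alone. Its fits all reuse the same counts, 1 with triptolide and 58 untreated, or part of them. CCN1 passed in 7 of these 14 settings and AXL in 5. Of 6 fits that leave out a library, CCN1 passed in 2 and AXL in 1. The other 6 target genes passed in 0 of these settings.

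**Figure D4:**
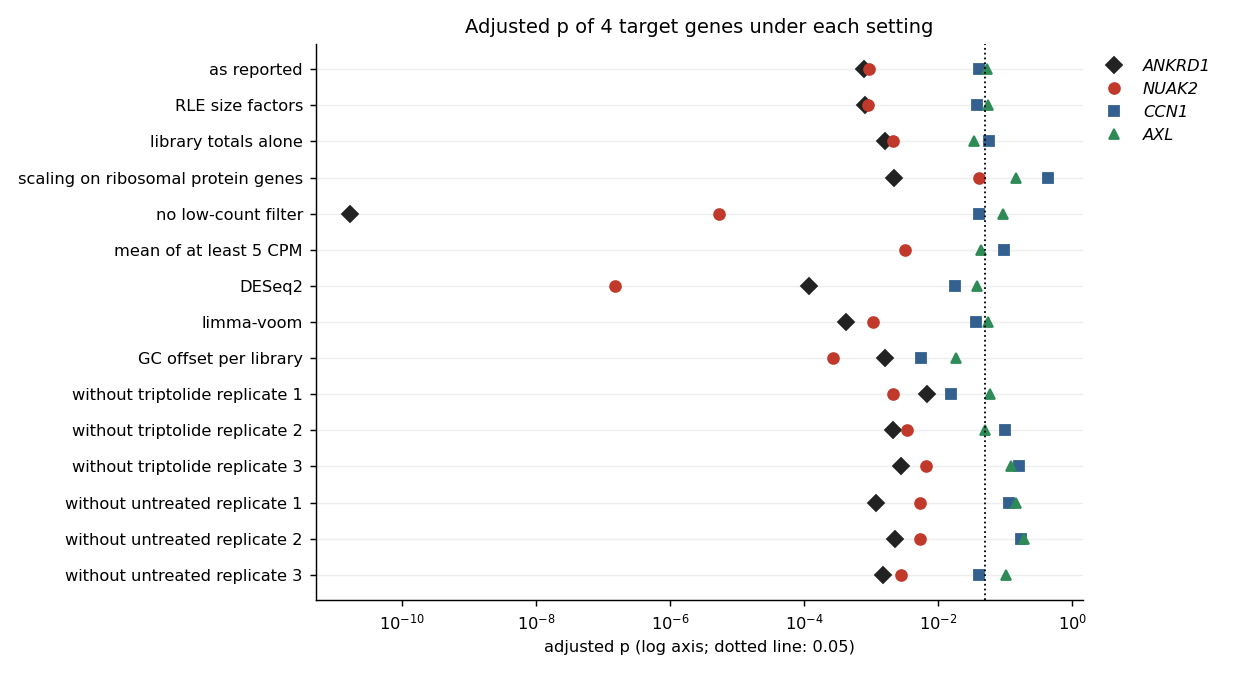
Adjusted p (x axis, log scale, dotted line at 0.05) of ANKRD1, NUAK2, CCN1 and AXL as reported and under 14 other settings fitted on group alone (rows). ANKRD1 and NUAK2 lie left of the line wherever they were tested, and CCN1 and AXL lie on both sides of it; ANKRD1 has no point where genes averaging under 5 CPM were left out.

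Reads that fall where genes overlap could alter these counts, since it is not given whether strand was used in counting. The counts of the neighbours do not size that effect, since they do not show how reads in the overlaps were assigned. In GENCODE 29, genes on the opposite strand overlap exons of CCN2, CRIM1, AXL and ARHGEF17, and their own counts, 1 to 24 in the triptolide libraries together and 0 to 16 in the untreated libraries together, were small beside the 708 to 16614 counts of these 4 genes with triptolide. Genes on the same strand overlap exons of AMOTL2 and AJUBA by 187 and 50 bases, and these overlapping genes have no row in the deposited counts.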

How the data were processed

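Poly(A)-selected RNA of MIA PaCa-2 cells was sequenced as paired reads in 3 triptolide and 3 untreated libraries. The authors deposited whole-number read counts per gene, with Ensembl IDs and no normalization; reads were handled with HISAT2 and featureCounts, per the submitters' processing notes. For the build, annotation and strand setting: not given in the sources used here. In the design text the name control is given to the triptolide libraries; groups here follow the treatment label. Symbols were matched for 35639 of 35716 IDs.

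From these counts, edgeR 4.0.16 (R 4.3.3) was run with filterByExpr, TMM scaling and the quasi-likelihood test on group alone, with Benjamini-Hochberg adjustment over all tested genes and a threshold of 0.05. Alternatives were DESeq2 1.42.0, limma-voom (limma 3.58.1), scaling by RLE, by library totals or on 83 ribosomal protein genes, keeping every gene with a count, keeping genes averaging 5 CPM or more, an offset for GC content, the replicate number as a term and each library left out. The fit was tested on simulated data. Exon length and GC content came from GENCODE 29, with a GC value for 99.2% of tested genes. Promoter sequences are RefSeq's (GRCh38.p14), and figures were drawn with matplotlib 3.10.9. All pairs of libraries differed beyond sampling noise, with a chi-square per degree of freedom of 5.31 for untreated libraries 1 and 2 and of 30.6 or more for other pairs.

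The members and the gene and marker lists were chosen with earlier results of these data known. Genes named are the 10 targets, YAP1, WWTR1, TEAD1 to TEAD4 and, of each other list, those called and the 2 most abundant of the rest, of which 1 is not reported here. NUAK1, ANKRD2, ANKRD23, CCN3, CCN5, CCN6, GAS6, MERTK, VGLL4, NF2 and the single marker genes were named after their values were seen.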

Additional observations from a re-analysis of the deposited data

How the results depend on the processing

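With 3 libraries a group, calls near the threshold moved with single libraries, and the cause was not tested. Leaving out each library in turn gave 953 to 1580 higher and 407 to 1034 lower genes, against 1527 and 884 with all 6. Of the target genes it gave 0 to 1 higher and 2 to 3 lower, of the other target markers 0 to 2 higher and 1 to 4 lower, of the YAP, TAZ, TEAD and VGLL genes 1 higher in every fit and 0 to 1 lower, and of the Hippo regulators 0 to 2 higher and 0 to 1 lower. Leaving out genes averaging under 5 CPM, which leaves 10290 genes and drops ANKRD1 and VGLL1 by construction, gave 584 higher and 336 lower genes, 1 higher (AXL) and 1 lower (NUAK2) target gene, 1 higher other target marker, 0 higher YAP, TAZ, TEAD and VGLL genes and 1 higher Hippo regulator. With ribosomal protein genes as the scale, the median log2 fold change of all genes was 0.17 and the share of calls that were higher was 90.3%, against 63.3% as reported, with 128 lower genes, 0 higher and 1 lower other target markers and 0 higher Hippo regulators. With library totals that share was 73.8% and AXL made 1 higher target gene. The GC offset gave 1807 lower genes, a share of 53.3%, 1 higher target gene (AXL), 2 lower genes among YAP, TAZ, TEAD and VGLL (TEAD2 and TEAD4) and 2 lower Hippo regulators (NF2 and WWC1). DESeq2 gave 1 higher target gene (AXL) and 1 higher other target marker (NT5E), RLE size factors 1 and limma-voom 1 higher Hippo regulator.

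No called target gene changed sign under any of these settings. Among those not called, the log2 fold change of AMOTL2 was 0.043 with ribosomal scaling and 0.052 without triptolide library 2, in a range of -0.27 to 0.052 with a library left out, that of LATS2 was -0.038 with the GC offset and -0.18 to 0.17 with a library left out, and that of ARHGEF17 was -0.088 with the GC offset and -0.15 to 0.23 with a library left out.

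The labels give both groups replicate numbers 1 to 3, but the libraries share only a number: same-numbered libraries' deviations from their group means correlated at 0.03, -0.04 and -0.44. With the replicate block there were 1523 higher and 856 lower genes, 2 lower target genes (NUAK2 and ANKRD1 were called, CCN1 was not, at an adjusted p of 0.114, nor AXL, at 0.155), 1 lower other target marker (AREG was at 0.0516 and FJX1 at 0.0958) and 3 higher Hippo regulators. The counts of 14 settings in the text leave this fit out; with it, CCN1 and AXL missed the threshold in 1 setting more. Depth limits ANKRD1, VGLL1, DCHS1 and IGFBP3, with at most 132 counts in a group.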
